A study of Mus musculus with 59 samples.

Results

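The respiratory chain and ATP synthase genes are the nuclear genes for the protein complexes of oxidative phosphorylation and for the factors that build them. They were taken by symbol, as every protein-coding mouse gene beginning with Nduf, Sdh, Uqcr, Cox followed by a digit, or Atp5. The rule found 109 of 21774 protein-coding genes. Grouped into complexes by symbol alone, these were 41 complex I (Nduf), 4 complex II (Sdha to Sdhd), 8 complex III (Uqcr), 18 complex IV (Cox4i to Cox8) and 17 ATP synthase (Atp5) genes. Ndufa4 and Ndufa4l2 were thus counted under complex I for their symbol. Another 21 code for assembly factors, of which 8 act on complex I (Ndufaf), 4 on complex II (Sdhaf) and 9 on complex IV (Cox10 to Cox20). Chromatin immunoprecipitation with sequencing (ChIP-seq) had mapped BCL6, PPARα and PPARδ in livers of male wild-type C57BL/6 mice that were fed ad lib or fasted overnight. A 7th list came from BCL6 in fed livers of Bcl6 fl/fl mice, which carry floxed Bcl6 alleles without the Cre that deletes them in hepatocytes and served as knockout controls. Each list was called on 3 pooled replicates, each from its own animal, and 21 samples stand behind the 7 lists. The lists hold positions alone, so peak strength, depth and the spread between replicates are unknown. A site was scored as listed or not listed in a feeding state, and no test was made. All intervals are exact 95% binomial intervals, which cover counting error only, and neither genes nor sites are replicates of a condition.

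Electrons from nutrients enter the respiratory chain at complex I (NADH) and complex II (succinate), pass through complex III to complex IV, and the proton gradient that this builds drives ATP synthase. Liver draws on this machinery in fasting, when fatty acids become its main fuel. PPARα is the nuclear receptor that switches on hepatic fatty acid oxidation in fasting, PPARδ is a related receptor, and BCL6 is a zinc-finger repressor. Promoters of oxidative phosphorylation genes are classically described as targets of NRF1, of the ETS-family factor GABP, of ERRα and of YY1, whereas PPARs bind as dimers with RXR to a direct repeat of AGGTCA with 1 base between the copies (DR1).

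Examples of NRF1 and ETS elements in promoters with a PPARα site are the 120 bases before the transcription start site (TSS) of 6 members. They were chosen because this stretch held such an element, overlapped no annotated exon and had at least 72 bases inside a PPARα site. Atp5j2, Atp5pb, Ndufab1, Ndufb2, Ndufc1 and Uqcrfs1 met the limits on exons and bases but held no NRF1 or ETS element in the stretch. Sequences are from GRCm38 (mm10), 5′ to 3′ on the gene's strand, with capitals where a searched element matched.
Sdhb, chr4:140961151-140961270, + strand: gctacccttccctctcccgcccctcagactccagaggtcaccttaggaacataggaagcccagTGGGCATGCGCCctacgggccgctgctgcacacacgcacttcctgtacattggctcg
Ndufa5, chr6:24527691-24527810, - strand: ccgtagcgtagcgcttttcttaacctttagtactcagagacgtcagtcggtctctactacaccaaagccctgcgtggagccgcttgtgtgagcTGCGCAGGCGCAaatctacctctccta
Ndufb6, chr4:40279422-40279541, - strand: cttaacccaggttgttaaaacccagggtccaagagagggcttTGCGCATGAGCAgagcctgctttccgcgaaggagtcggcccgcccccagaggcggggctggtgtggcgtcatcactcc
Cox5b, chr1:36691367-36691486, + strand: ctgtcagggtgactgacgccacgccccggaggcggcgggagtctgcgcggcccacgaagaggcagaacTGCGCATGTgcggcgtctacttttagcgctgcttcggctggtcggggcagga
Cox16, chr12:81485138-81485257, - strand: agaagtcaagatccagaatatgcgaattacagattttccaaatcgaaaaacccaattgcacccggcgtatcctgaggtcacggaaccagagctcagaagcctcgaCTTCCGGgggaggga
Ndufs5, chr4:123718187-123718306, - strand: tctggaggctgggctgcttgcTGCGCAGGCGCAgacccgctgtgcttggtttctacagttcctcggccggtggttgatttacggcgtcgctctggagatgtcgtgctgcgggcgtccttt
The capitals in Sdhb, Ndufa5, Ndufb6, Cox5b and Ndufs5 mark the NRF1 element TGCGCATGC with up to 1 mismatch, and in Cox16 the ETS element CCGGAAG without mismatch. The run in Ndufs5 lay across the edge of its PPARα site. It was outside the central 200 bp window in which elements at sites were counted. All elements were sought on both strands, so that overlapping matches on opposite strands read as 1 longer run of capitals. The Ndufs5 peak was listed in fed livers alone, that of Ndufa5 in both states and the other 4 in fasted livers alone.

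Distal sites are shown by 120 bases at the center of 3 of them on the + strand, one for each pattern of PPARδ. Each was picked among sites with a searched element in these bases. Of the other PPARδ sites near members, only the one at Ndufc2 held a searched element, an ERRα match, in its central 120 bases. The Ndufb3 site was listed for all 3 factors in both feeding states. The Cox7a2l site was listed for all 3 factors as well, with PPARδ in fed livers alone, and the Ndufa8 site for PPARδ in fasted livers alone.
Ndufb3 site, chr1:58604882-58605001, + strand: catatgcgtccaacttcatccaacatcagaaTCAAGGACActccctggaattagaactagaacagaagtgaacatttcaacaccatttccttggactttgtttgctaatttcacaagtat
Cox7a2l site, chr17:83567541-83567660, + strand: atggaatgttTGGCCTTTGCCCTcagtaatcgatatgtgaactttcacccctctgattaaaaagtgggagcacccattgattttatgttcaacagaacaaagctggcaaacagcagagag
Ndufa8 site, chr2:36034009-36034128, + strand: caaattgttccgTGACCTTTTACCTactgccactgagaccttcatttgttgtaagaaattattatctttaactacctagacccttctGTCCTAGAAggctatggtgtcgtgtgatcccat
Capitals mark a DR1 with up to 2 mismatches in Cox7a2l and, as the first run, in Ndufa8, where the second run is the BCL6 element TTCCTAGAA with up to 1 mismatch. In Ndufb3 they mark the ERRα element TCAAGGTCA with up to 1 mismatch. That element contains AGGTCA, the half-site of the DR1, but in Ndufb3 the mismatch falls inside it and the letters read AGGACA. A match says that these letters are present in the window and does not show that a factor is bound to them.

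PPARα was the factor found at most members, and more of them in the fasted than in the fed list. With a peak given to whichever gene's TSS lay closest, up to 100 kb away, 31 of 109 members (28.4%, 20.2% to 37.9%) had a PPARα peak in fed livers and 62 (56.9%, 47% to 66.3%) in fasted livers. Over all protein-coding genes the shares were 32% and 43.5%, so that members lay near the background in fed livers and above it in fasted livers. BCL6 was near a smaller share of members than of all genes in either state, with intervals that reach up to or past the background. It was listed near 19 members in fed livers (17.4%, 10.8% to 25.9%) against 25.9% of all genes, and near 14 members in fasted livers (12.8%, 7.2% to 20.6%) against 18.9%. PPARδ was listed near 9 members in fed livers (8.26%, 3.85% to 15.1%) against 17% of all genes, and near 6 in fasted livers (5.5%, 2.05% to 11.6%) against 7.7%. In floxed fed livers BCL6 was near 27 members (24.8%, 17% to 34%) against 28.6% of all genes. The background for PPARα itself rose with fasting, and its fasted list was longer, with 29085 peaks against 21410.

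**Figure D1:**
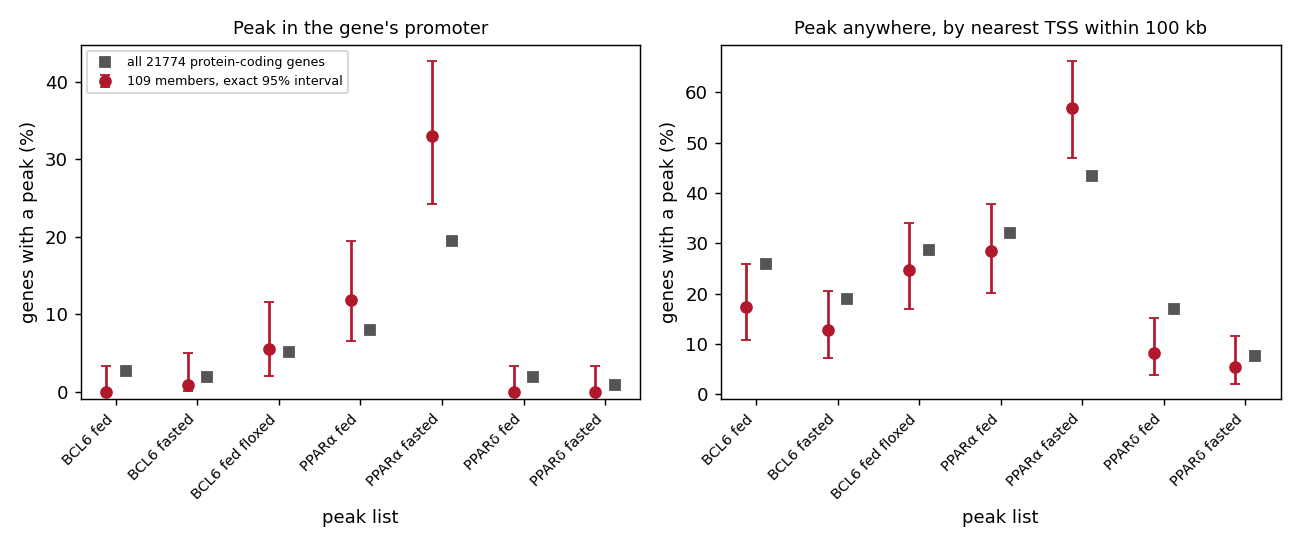
Share of genes with a peak (y axis, %) in each of the 7 lists (x axis), for peaks in the promoter (left) and for peaks assigned by the nearest TSS within 100 kb (right). Red circles are the 109 members with exact 95% intervals and gray squares are all 21774 protein-coding genes; the fasted PPARα list stands at 33% of members' promoters against 19.5% of all promoters.

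The promoters accounted for much of this. The promoter window covered 1000 bp before and 100 bp after a gene's own TSS, whichever gene's TSS was nearest to the peak. In fed livers 13 members had a promoter PPARα peak (11.9%, 6.51% to 19.5%) against 8% of all genes, and in fasted livers 36 did (33%, 24.3% to 42.7%) against 19.5%. Of the 40 members with a promoter PPARα peak in either state, 27 were listed in fasted livers alone (24.8% of members, 17% to 34%, against 12.4% of all genes). Another 9 were listed in both states (8.26%, 3.85% to 15.1%, against 7.11%) and 4 in fed livers alone (3.67%, 1.01% to 9.13%, against 0.882%). The fed-only excess depended on the window edge. With peak centers within 200 bp joined into sites, 2 of 34 promoter PPARα sites were fed only (5.88%, 0.72% to 19.7%), against 4.97% over all genes. The peaks lay close to the start of transcription. Of the 36 members with a fasted promoter peak, 24 had a center within 100 bp of their TSS and 29 within 200 bp. No member had a promoter peak of BCL6 in fed livers (0 of 109, which allows up to 3.33%) against 2.66% of all genes, and 1 did in fasted livers against 1.9%, so that members could not be told from the background at this number of genes. PPARδ was in no member's promoter in fed or fasted livers, with the same limit of 3.33%, against 1.9% and 0.808% of all genes, which lie within that limit.

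Because most members have promoters rich in CpG dinucleotides, the same counts were made within that class, a comparison chosen after the data were seen. RefSeq promoter sequences (GRCm38, 250 bases before to 50 after the TSS) matched 89 of 109 members and 17492 genes in all. Of these, 70 members (78.7%) and 8411 genes (48.1%) were CpG-rich, with a GC share over 0.5 and observed over expected CpG above 0.6. Fasted PPARα peaks were in 25 of the 70 CpG-rich member promoters (35.7%, 24.6% to 48.1%), and the background among CpG-rich promoters was 31.1%. In fed livers it was 8 of 70 (11.4%, 5.07% to 21.3%) against 10.7%. Within CpG-rich promoters the members were near the background in both states. Among the 19 members with other promoters, fasted peaks were in 5 (26.3%, 9.15% to 51.2%) against 9.69%, and fed ones in 2 (10.5%, 1.3% to 33.1%) against 6%. Peaks of fasted livers alone were in 4 of these 19 (21.1%, 6.05% to 45.6%) against 4.43%, and in 19 of the 70 CpG-rich ones (27.1%, 17.2% to 39.1%) against 21.6%. Over all genes, promoter PPARα peaks were at 8% in fed and 19.5% in fasted livers, and 3 other gene sets were counted beside them. Cytosolic ribosomal protein genes had such peaks in 9.52% of 84 genes in fed and 38.1% in fasted livers. For 78 mitochondrial ribosomal protein genes (Mrpl and Mrps) the shares were 14.1% and 30.8%. The 47 mitochondrial carriers of the Slc25a family stood at 23.4% and 27.7%.

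**Figure D2:**
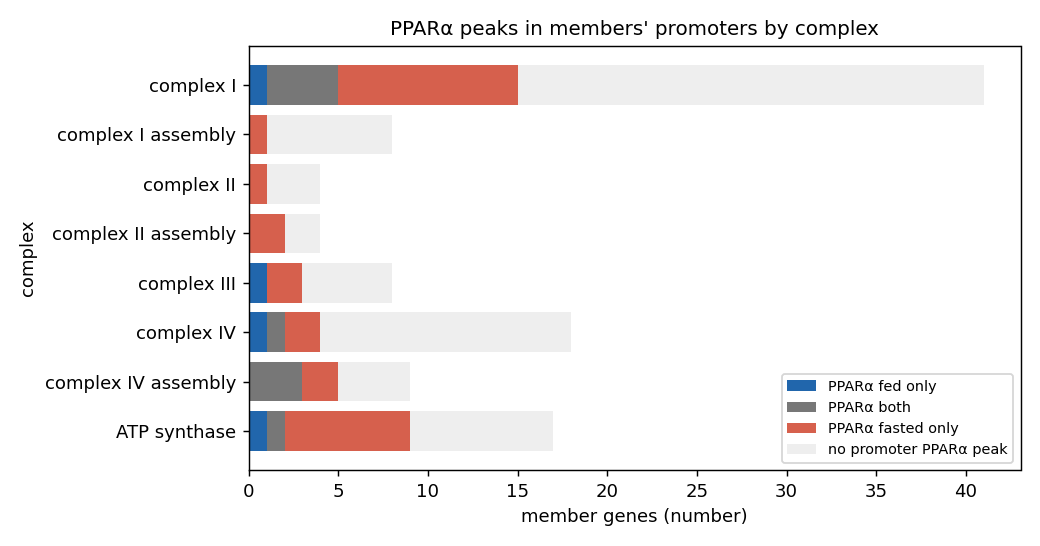
Number of member genes (x axis) in each complex (y axis) by the feeding state in which their promoter held a PPARα peak. Blue is fed alone, dark gray both states, red fasted alone and light gray no promoter PPARα peak; red is the longest of the 3 colored parts in complex I (10 of 41 genes) and ATP synthase (7 of 17). Fasted-only promoter peaks were at 12.4% of all genes and at 21.6% of those with a CpG-rich promoter.

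Complex I is the entry point for NADH. Promoter PPARα peaks were listed in fasted livers at 14 of the 41 genes placed in it by symbol (34.1%, 20.1% to 50.6%) and in fed livers at 5. Over all genes the shares were 19.5% in fasted and 8% in fed livers. The fasted share of CpG-rich promoters, 31.1%, lies inside the interval of complex I. Among its core subunits, a grouping made after the values were seen, Ndufs1, Ndufs3, Ndufs7 and Ndufs8 had the promoter peak in fasted livers and not in fed livers. Ndufv1 and Ndufv2 had no promoter peak. The fasted peak at Ndufs3 was centered 100 bp downstream of its TSS, that at Ndufs7 204 bp upstream and that at Ndufs8 163 bp upstream. At Ndufs1 it lay 77 bp upstream, but closer to the TSS of Eef1b2, a translation elongation factor that shares the promoter. Accessory subunits with a peak in both states were Ndufa1, Ndufa5, Ndufb2 and Ndufab1. Ndufab1, which is also the mitochondrial acyl carrier protein, had its fasted peak centered on the TSS itself (0 bp) and its fed peak 5 bp upstream.

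Complex II hands electrons from succinate to the chain. Its iron-sulfur subunit Sdhb had a fasted-only PPARα peak 11 bp upstream of the TSS. Sdha, the flavoprotein subunit, had a fasted-only site 127 bp into the gene and a BCL6 site, listed in both states, 5115 bp into it. Sdhd had a fasted-only PPARα site 8832 bp away, and Sdhc, a membrane anchor, had no peak in any list. The assembly factors Sdhaf2 and Sdhaf3 had fasted-only promoter peaks at 59 and 2 bp downstream of their TSSs. None of the 4 subunits and 4 assembly factors of complex II had a PPARα peak in fed livers. Over all genes 32% had one nearby and 8% in the promoter, and these genes are too few to be told from that background.

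Complex III passes electrons from ubiquinol to cytochrome c. Uqcrfs1, the Rieske iron-sulfur protein, had a fasted-only PPARα peak 27 bp upstream of its TSS and a PPARα site of both states 1226 bp into the gene. Uqcrb had a fasted-only peak 20 bp upstream. The core proteins Uqcrc1 and Uqcrc2 had no peak in any list, nor did Uqcr11 and Uqcrh.

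Complex IV reduces oxygen. Of its 18 subunit genes, 3 (16.7%, 3.58% to 41.4%) had a fasted promoter PPARα peak, namely Cox5a, Cox5b and Cox7b. Its assembly factors had it at 5 of 9 (55.6%, 21.2% to 86.3%), and the intervals of the 2 groups overlap. The share was 19.5% over all genes and 31.1% over those with a CpG-rich promoter, and the latter lies inside both intervals. Cox17, a copper chaperone, and Cox18, which inserts a core subunit into the membrane, had the peak in both states, at 17 bp downstream and 67 bp upstream in fasted livers. Cox14 and Cox16 had it in fasted livers alone.

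ATP synthase had fasted promoter PPARα peaks at 8 of 17 genes (47.1%, 23% to 72.2%) and fed ones at 2. Over all genes the shares were 19.5% in fasted and 8% in fed livers. The fasted share of CpG-rich promoters, 31.1%, lies inside the interval of ATP synthase. Its catalytic F1 part has 5 subunits, a grouping made after the values were seen. Of these, Atp5a1, Atp5b, Atp5c1 and Atp5d had the fasted promoter peak and Atp5c1 had the fed one as well. Atp5e, the 5th, had a fasted-only site 242 bp into the gene, outside the promoter window. The fasted peak at Atp5b, the catalytic β subunit, lay 358 bp upstream, and that at Atp5a1 lay closer to the TSS of its divergent neighbor Haus1. Atp5j had 2 fasted-only promoter peaks. The one 91 bp downstream was also in the promoter of Gabpa, which codes for the DNA-binding subunit of GABP.

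**Figure D3:**
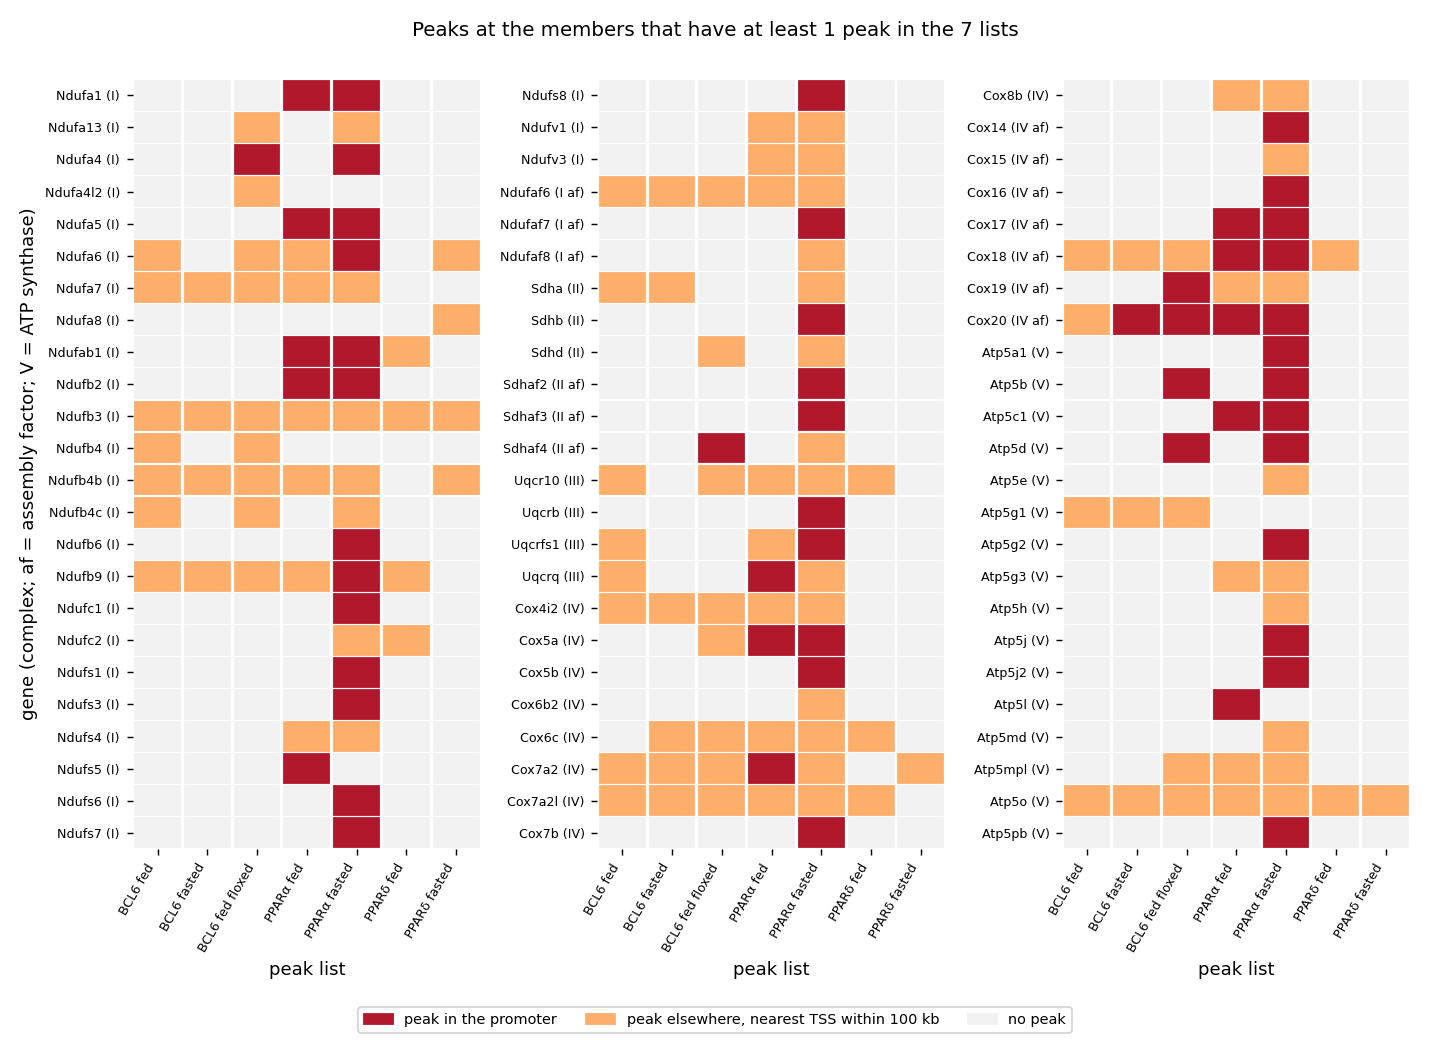
Peaks at the 72 members (rows) that had at least 1 peak in the 7 lists (columns), ordered by complex. Red cells are peaks in the gene's promoter, orange cells are peaks elsewhere with the gene's TSS nearest within 100 kb and gray cells are no peak; the fasted PPARα column holds 36 red cells, and the C57BL/6 BCL6 and PPARδ columns hold 1, at Cox20.

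Fed-only promoter PPARα peaks were few. Ndufs5, a complex I subunit, had a fed peak 12 bp downstream of its TSS and no fasted peak within 200 bp of it. Atp5l, a membrane subunit of ATP synthase, had one 563 bp upstream with no fasted partner. Its center is printed from the + strand, and none of the 6 elements was found in these 120 bases.
Atp5l site, chr9:44921245-44921364, + strand: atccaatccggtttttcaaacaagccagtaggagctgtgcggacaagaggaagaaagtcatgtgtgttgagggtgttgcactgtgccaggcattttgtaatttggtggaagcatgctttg
At Cox7a2 and Uqcrq the fed peaks, 84 bp downstream and 995 bp upstream, lay just inside the promoter window while the matching fasted peaks lay just outside it. When fed and fasted peaks with centers within 200 bp were joined into sites, both had a PPARα site of both states.

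Shared promoters limited which gene a peak could be tied to. Of the 40 members with a promoter PPARα peak in either state, 13 had such a peak that also lay in another gene's promoter, and for 5 every such peak was nearer to the other gene's TSS. Besides Ndufs1 with Eef1b2 and Atp5a1 with Haus1, these were Ndufaf7 with Cebpz, Ndufa4 with Phf14 and Ndufb9 with Tatdn1. All told, 35 members had the TSS of another protein-coding gene within 1 kb.

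Joining the 6 C57BL/6 lists gave 38462 sites, of which 32683 had a protein-coding TSS within 100 kb and 133 were nearest to 66 members. Members thus held 0.407% of assigned sites and made up 0.501% of genes. Of the 133 sites, 34 were in the member's promoter (25.6%, 18.4% to 33.8%) against 13.7% of all assigned sites. Introns of the member held 21 (15.8%, 10% to 23.1%) against 40.2%, exons 6 (4.51%) against 3.16%, and 72 lay outside the member's gene (54.1%, 45.3% to 62.8%) against 43%. PPARα stood alone at 87 sites (65.4%, 56.7% to 73.4%, against 47.4% of all assigned sites). BCL6 and PPARα shared 20 (15%, 9.43% to 22.3%, against 22.1%), and all 3 factors were at 7 (5.26%, 2.14% to 10.5%, against 11.9%), a smaller share than over all assigned sites. PPARα and PPARδ shared 4, while 11 held BCL6 alone and 4 PPARδ alone (3.01%, 8.27% and 3.01%, against 6.38%, 9.18% and 2.85%). In promoters the split was sharper, as 33 of the 34 promoter sites held PPARα alone (97.1% against 78.5% of all promoter sites).

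Promoter and distal PPARα sites differed in feeding state. Of 34 promoter PPARα sites, 24 were listed in fasted livers alone (70.6%, 52.5% to 84.9%), 8 in both states and 2 in fed livers alone. Of 84 PPARα sites outside promoters, 33 were fasted only (39.3%, 28.8% to 50.5%), 42 were listed in both states and 9 in fed livers alone. All assigned PPARα sites showed the same order, with 60.2% of promoter and 33.1% of other sites in fasted livers alone. Within 500 bp of a TSS there were 42 of the members' 118 PPARα sites (35.6%, 27% to 44.9%) against 15.7% over all genes, and 31 of those 42 were fasted only. The median distance of a PPARα site from the TSS was 4903 bp for members and 11995 bp for all genes.

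**Figure D4:**
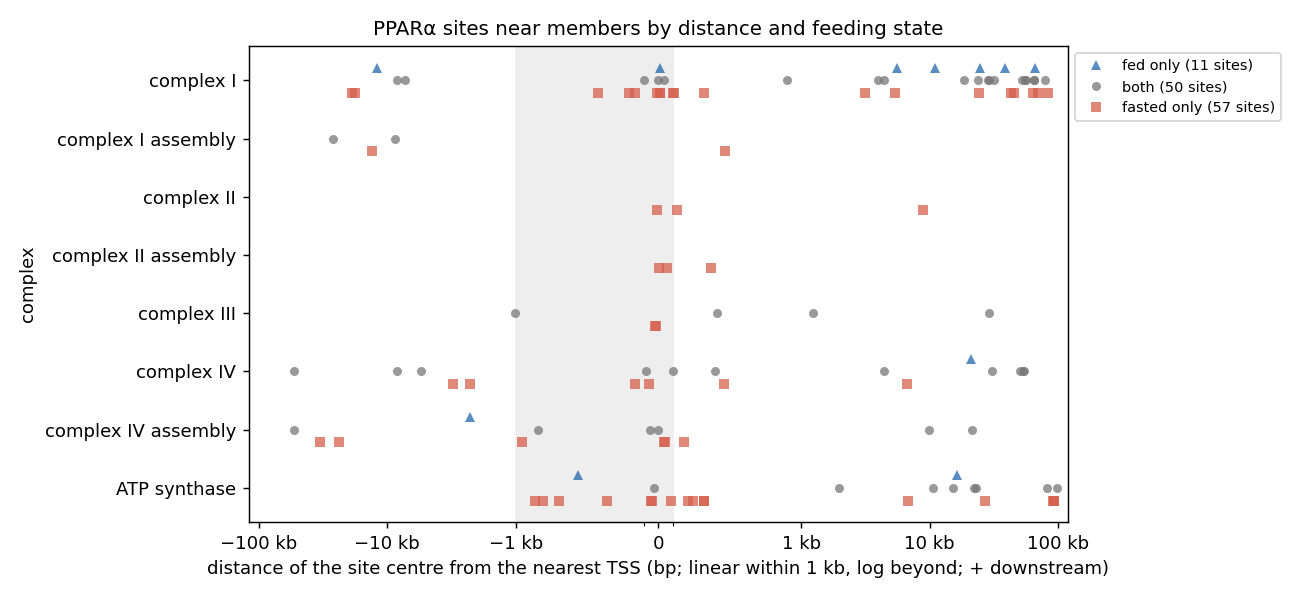
Distance of each of the 118 PPARα sites from the nearest member TSS (x axis, bp, linear within 1 kb and log beyond, positive downstream) by complex (y axis). Blue triangles are listed in fed livers alone (11), gray circles in both states (50) and red squares in fasted livers alone (57); the shaded band is the promoter window, which holds 34 sites, 24 of them red.

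BCL6 sites of members lay mostly far from the TSS. The 38 sites were near 20 members, with a median distance of 22575 bp (17232 bp over all genes) and none within 500 bp of a TSS (0 of 38, which allows up to 9.25%), where 3.89% of all BCL6 sites lay, so that a depletion near the start was not detectable in 38 sites. By feeding state, 15 were listed in fed livers alone (39.5%, 24% to 56.6%), 16 in both states and 7 in fasted livers alone, against 43.7%, 44.7% and 11.6% of all BCL6 sites. The nearest to a start was at Cox20, an assembly factor for complex IV. There a BCL6 peak of fasted livers was centered 825 bp upstream of the TSS beside PPARα peaks of both states, and the floxed fed list had a BCL6 peak 816 bp upstream. PPARα was present at 27 of the 38 BCL6 sites (71.1%, 54.1% to 84.6%) against 78.3% over all genes. Read the other way, 27 of 118 PPARα sites held BCL6 (22.9%, 15.7% to 31.5%) against 38.7%. BCL6 stood without either PPAR 1205 bp upstream of Atp5g1, which codes for the c subunit that forms the rotor of ATP synthase, and 2351 bp upstream of Cox7a2, in both states at each.

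The floxed fed livers gave another view of fed BCL6. Of 31 BCL6 peaks near members in fed C57BL/6 livers, 23 had a floxed peak within 200 bp (74.2%, 55.4% to 88.1%) against 70.2% over all genes, while 23 of the 44 floxed peaks had a C57BL/6 fed partner (52.3%, 36.7% to 67.5%) against 60.4%. The floxed list had BCL6 in 6 members' promoters (5.5%, 2.05% to 11.6%) against 5.17% of all genes, so that it was near its own background. These were Atp5b (410 bp upstream), Atp5d (10 bp upstream), Cox19 (171 bp upstream), Cox20, Ndufa4 (31 bp downstream) and Sdhaf4 (95 bp upstream). None of the 6 had a fed C57BL/6 BCL6 peak in its promoter. The floxed alleles and the separate set of libraries cannot be told apart here.

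PPARδ peaks were assigned to 13 members. Joined sites placed PPARδ at 15 sites near 14 members, the extra one being Cox19, and 9 of the 15 were listed in fed livers alone (60%, 32.3% to 83.7%, against 70.7% over all genes), 2 in both states and 4 in fasted livers alone. PPARα was present at 11 of the 15 (73.3%, 44.9% to 92.2%) against 85.6%. The site nearest to a start was at Ndufc2, a complex I subunit, in its first exon 106 bp downstream of the TSS, with PPARδ in fed and PPARα in fasted livers. PPARδ alone was listed in fasted livers near Ndufa8, Ndufb4b and Cox7a2 and in fed livers near Ndufab1. The remaining members with PPARδ were Ndufa6, Ndufb3, Ndufb9, Cox6c, Cox7a2l, Cox18, Uqcr10 and Atp5o.

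At 7 sites near members all 3 factors were listed, between 7227 and 82579 bp from the TSS. One of them, the Ndufb3 site whose center is printed above (chr1:58604805-58605083, 18545 bp downstream of the TSS), appeared in all 6 C57BL/6 lists. A second triple site followed 23972 bp downstream of the same TSS, there without PPARδ in fasted livers. The triple site assigned to Atp5o (chr16:91848931-91849179) held PPARα and PPARδ in both states and BCL6 in fed livers alone, and it lies in an intron of Itsn1, an endocytic scaffold gene. Those assigned to Cox7a2l and Cox18 had BCL6 and PPARα in both states and PPARδ in fed livers. The site 7227 bp upstream of Ndufa6 had BCL6 in fed livers and PPARδ in fasted livers.

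Of the 32 sites of the 5 members with the most, 29 lay more than 10 kb from the TSS. Ndufb9 had 8, Ndufb3, Ndufb4b, Atp5o and Cox18 had 6 each, Atp5mpl had 5, and Cox7a2, Cox8b and Uqcrfs1 had 4 each. Another 6 members had 3 sites, and of these Atp5j, 1st by name, had 2 in its promoter. All 8 sites of Ndufb9 fell within Mtss1, between 31858 and 70075 bp downstream, all 6 of Atp5o within Itsn1 and all 6 of Ndufb4b within Dock8. Another 4 of the 6 Cox18 sites fell within Ankrd17. Of the 72 sites outside the member's own gene, 37 lay inside another protein-coding gene. The nearest TSS is a rule of position, and which gene such a site acts on was not tested. Ndufb4b is the one member with predicted transcript models alone, which were then used for its TSS. Cox8b, the heart and muscle isoform of its subunit, had 4 PPARα sites between 2255 and 8370 bp upstream, of which the 2 farther ones were listed in both states and the 2 nearer ones in fasted livers alone. The 5 sites of Atp5mpl, a small subunit of ATP synthase, held PPARα alone, 4 in both states and 1 in fed livers.

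No peak of any list was near or in the promoter of 37 members (33.9%, 25.1% to 43.6%), against 48.9% of all genes. They were 14 complex I subunits, 5 complex I assembly factors, 1 subunit and 1 assembly factor of complex II, 4 complex III subunits, 9 subunits and 2 assembly factors of complex IV, and 1 ATP synthase gene, Atp5k. The 9 complex IV subunits were Cox4i1, Cox6a1, Cox6a2, Cox6b1, Cox7a1, Cox7b2, Cox7c, Cox8a and Cox8c.

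Members' promoters often held NRF1, ETS and YY1 elements, whether or not they had a PPARα peak. Within the 300-base promoters, the NRF1 element was in 33 of 89 members (37.1%, 27.1% to 48%) against 13% of all genes and 21.4% of genes with a CpG-rich promoter. It was in 11 of the 30 members with a fasted PPARα promoter peak (36.7%, 19.9% to 56.1%) and in 20 of the 56 without one in either state (35.7%, 23.4% to 49.6%). The ETS element was in 27 members (30.3%, 21% to 41%) against 12.9% of all genes and 21.4% of those with a CpG-rich promoter, which lies inside the members' interval. It was in 33.3% and 28.6% of members with and without the peak. The YY1 element AAGATGGCG, with up to 1 mismatch, was in 23 members (25.8%, 17.1% to 36.2%) against 9.83% of all genes and 14.1% of the CpG-rich class. It was in 10 of the 30 members with the peak (33.3%, 17.3% to 52.8%) and 13 of the 56 without it (23.2%, 13% to 36.4%). The ERRα element was in 1 of the 30 members with the peak (3.33%) and 9 of the 56 without it (16.1%), with intervals of 0.0844% to 17.2% and 7.62% to 28.3%. The DR1 was rare, in 2 of 89 members (2.25%, 0.273% to 7.88%) against 3.89% of all genes.

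At the sites themselves, windows of 200 bp at the center were searched. Of the 34 promoter PPARα sites of members, 4 held a DR1 (11.8%, 3.3% to 27.5%, against 6.03% of all promoter PPARα sites) and 10 the NRF1 element (29.4%, 15.1% to 47.5%, against 11.3%). The ETS element was in 7 (20.6%, against 20.4%) and the YY1 element in 7 (20.6%, 8.7% to 37.9%, against 6.78%). Outside promoters the DR1 was in 10 of 84 PPARα sites of members (11.9%, 5.86% to 20.8%, against 15.2%), and the ETS element in none of the 84 (which allows up to 4.3%). At the 38 BCL6 sites the BCL6 element was found in 4 (10.5%, 2.94% to 24.8%) against 15% over all BCL6 sites, and at the 15 PPARδ sites the DR1 in 3 (20%, 4.33% to 48.1%) against 21.3%.

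**Figure D5:**
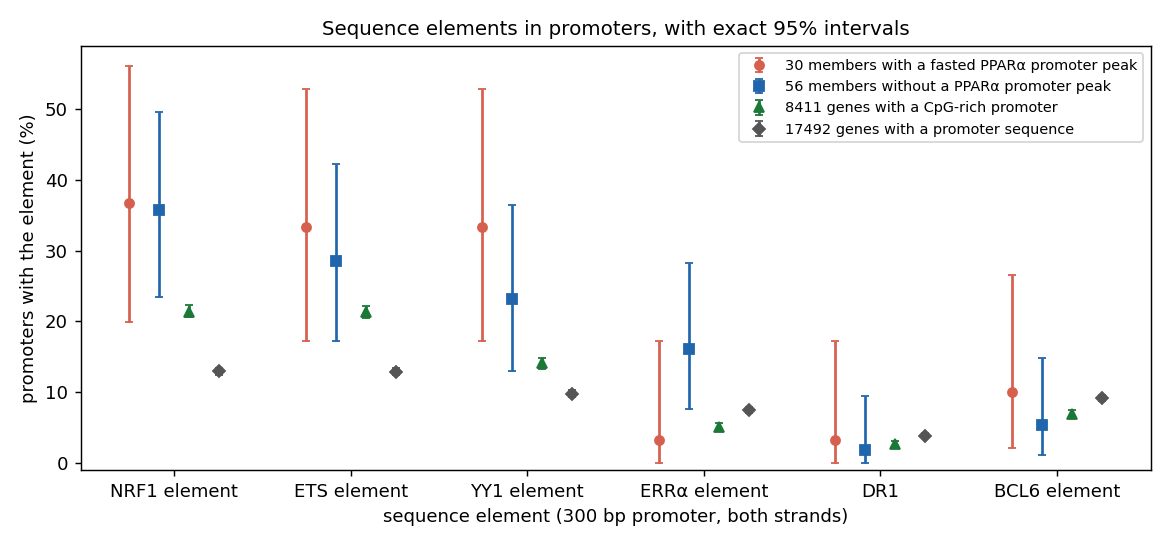
Share of 300-base promoters that hold each element (y axis, %) for 6 elements (x axis), with exact 95% intervals. Red circles are members with a fasted PPARα promoter peak, blue squares members with no PPARα promoter peak, green triangles all genes with a CpG-rich promoter and gray diamonds all genes with a sequence; for NRF1 the 2 member groups stand at 36.7% and 35.7%, above 21.4% and 13%.

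Electron carriers and related genes outside the symbol rule included some with promoter PPARδ peaks. Of 10 such genes, PPARδ was in the promoters of 3 in both feeding states (30%, 6.67% to 65.2%, against 1.9% of all genes in fed and 0.808% in fasted livers), and these were Cycs, which codes for somatic cytochrome c, and Etfa and Etfb, the 2 subunits of the flavoprotein that takes electrons from fatty acyl-CoA dehydrogenases. At each the PPARδ and PPARα peaks of both states formed 1 site, 324 bp upstream of Cycs, 85 bp upstream of Etfa and 106 bp upstream of Etfb. Etfdh, which passes those electrons on to ubiquinone, had such a site 411 bp into the gene, and Ucp3, an inner membrane carrier, had such sites 7144 and 11287 bp upstream. No promoter of the 109 members had a PPARδ peak, which allows up to 3.33%, so that members could not be told from all genes. The site at Ndufc2 with PPARδ in fed livers was centered 106 bp downstream of the TSS, just outside the promoter window. With a window of 200 or 1000 bp on either side, 1 of 109 members had a fed PPARδ promoter peak (0.917%). Cyc1, a complex III subunit outside the rule, had no site. Among 26 further assembly factors, fasted promoter PPARα peaks were in 8 (30.8%, 14.3% to 51.8%, against 19.5%) and fed ones in 4 (15.4%, 4.36% to 34.9%, against 8%), and PPARδ was in the promoter of Pet117 alone.

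Regulators of these genes carried their own sites. Of 14 listed coactivators and factors, 10 had a PPARα peak nearby in fasted livers (71.4%, 41.9% to 91.6%, against 43.5%) and 7 in fed livers (50%, 23% to 77%, against 32%). BCL6 in fed livers was near 7 (50%, 23% to 77%, against 25.9%), and the intervals of all these shares, fasted and fed, include the background. Ppargc1a, the coactivator PGC-1α that is induced in fasted liver, had 7 sites, 5 of them PPARα in fasted livers alone and none in the promoter. Tfam, which packages and transcribes mitochondrial DNA, had a triple site 13995 bp upstream of its TSS, with BCL6 and PPARα in both states and PPARδ in fed livers. Esrra, which codes for ERRα, had a PPARδ site of both states 448 bp downstream of its TSS and a fasted-only PPARα site 128 bp downstream. Nrf1 had a fed BCL6 site alone, 58131 bp upstream, and Yy1 had none.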

How the data were processed

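BCL6, PPARα and PPARδ ChIP-seq of mouse liver was analysed from 7 deposited peak lists, each from 3 pooled replicates. Reads were aligned to mm10 by Bowtie, and the authors discarded reads with several genomic matches and repeats of a start position before they ran HOMER with input as control. They then kept the peaks that passed a fold and false discovery rate limit in a count model on individual libraries. The deposited lists give chromosome, start and end with no count, score or p-value, so depth is unknown, no unit of signal applies and calls of 2 feeding states may differ through depth. Near-identical gene copies can lack uniquely mapped reads.

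From these positions, peak centers were assigned to the nearest TSS of curated protein-coding RefSeq transcripts (GRCm38.p6, the mm10 assembly) within 100 kb, or of predicted ones for the 774 genes without curated models. The promoter window covered 1000 bp before and 100 bp after the TSS. Centers within 200 bp were joined by single linkage into sites. Per-site sequence windows were 200 bp. No test was made. Members, gene lists and elements were chosen with earlier results of these data known. The genes named were the 10 with most sites (ties by name), those with PPARδ, those with promoter BCL6 and those with fed-only promoter PPARα. Members without a peak were to be counted by complex. Other members were named after their values were seen, to describe each complex. Scripts were tested on simulated data. Alternatives covered reach, TSS choice, promoter window, joining distance, BCL6 list, assembly factors, shared promoters and the sequence search. Libraries without a peak list were not used here. Scripts ran under Python 3.11.15 with SciPy 1.17.1 for the intervals, NumPy 2.4.6 and, for plots, Matplotlib 3.10.9.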

Additional observations from a re-analysis of the deposited data

How the results depend on the processing

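Each of 32 shares and counts was recomputed under the alternatives that apply to it, 118 values in all, of which 103 stayed within the exact 95% interval of the main value (for the number of sites, within 1.5 times) and 15 moved beyond it. With peaks assigned within 10 kb in place of 100 kb, members with a peak fell to 10.1% for fed BCL6, 6.42% for fasted BCL6, 14.7% for floxed BCL6, 19.3% for fed PPARα and 0.917% for fed PPARδ, and the sites near members to 79, which follows from the shorter reach. A promoter of 1000 bp on either side gave fasted PPARα peaks at 45% of members, and one of 200 bp on either side left fasted BCL6 at 0%. A window of 100 bp left the NRF1 element at 14.7% of promoter PPARα sites. With 1 mismatch fewer, promoter PPARα sites held the NRF1 element at 2.94%, the ERRα element at 2.94%, and the DR1 and the BCL6 element at 0%, other PPARα sites held the DR1 at 4.76% and BCL6 sites the BCL6 element at 2.63%. The share of promoter PPARα sites listed in fasted livers alone stayed between 69% and 73.1% under all 8 alternatives run for it. Without the 35 members that have another TSS within 1 kb, 31.1% had a fasted PPARα promoter peak. The CpG-rich class was added after the data were seen. No paired analysis was possible because each list pools its replicates, and for the same reason no replicate could be left out. Since depth is unknown, a peak listed in 1 state alone may lie just under the limit in the other.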
